A study of Mus musculus with 14 samples.

Results

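Gene expression of peritoneal B-1a cells from Bmi1 knockout (KO) mice was compared with that of wild-type (WT) mice on the 6 one-colour arrays of the first experiment set, out of 14 arrays in the series. The members were the arrays whose titles join the number to the genotype directly or by a space, which are KO replicates 2, 3 and 4 and WT replicates 2, 3 and 4. All 6 shared 1 slide. The second set, used here only beside the first, held 4 KO and 4 WT arrays on other slides. The labels give the genotype and the cell type of each sample. The sources used here do not give the allele, the strain, the age and sex of the mice, any pooling of animals or the gate of the sort. Nor do they tie the 3 samples of each genotype to separate mice, so that p-values rest on a spread between samples that could be technical.

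B-1a cells are self-renewing B lymphocytes of the body cavities that make natural antibodies, often against phospholipids such as phosphatidylcholine. Bmi1 is a core subunit of Polycomb repressive complex 1 (PRC1), a chromatin complex that keeps developmental genes closed. Its best known targets are the Ink4b-Arf-Ink4a locus (Cdkn2b and Cdkn2a), which encodes inhibitors of cell division, and the Hox genes, which encode transcription factors of the body axis. The comparison asks which transcripts differ in B-1a cells of Bmi1 KO mice.

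A level is the log2 of a probe's processed signal minus the 75th percentile of its array, and a difference is the KO mean minus the WT mean of such levels. Spots well above background made up 56.6%, 56.1% and 37.3% of the spots of KO replicates 2, 3 and 4, and 43.7%, 59.6% and 63.1% for WT replicates 2, 3 and 4. KO replicate 4 and WT replicate 2 were thus the dimmest array of each genotype. The KO arrays correlated with each other less (r across genes from 0.69 to 0.77) than the WT arrays did (0.82 to 0.94). KO replicate 3 was nearer to the WT arrays, with a mean r of 0.87 with them and 0.76 with the other KO arrays. KO replicates 2 and 4 had a mean r of 0.74 and 0.72 with the WT arrays, and each 0.73 with the other KO arrays. The KO arrays and WT replicate 2 lay in row 1 of the slide and WT replicates 3 and 4 in row 2. The B cell genes Ms4a1, Cd79a, Cd79b and Pax5 were well above background on all 6 arrays. The B cell gene Ighm was above background on 3 KO and 2 WT arrays, with levels from -4.27 to -2.04. Cd5, the surface marker of B-1a cells, was above background on 2 KO and 3 WT arrays. The Y-linked gene Ddx3y was above background on every array but WT replicate 4. Eif2s3y, also Y-linked, was above background on all 6 arrays, with -0.41 on WT replicate 4. Y-linked Kdm5d had -6.13 on WT replicate 4 but also -5.30 on KO replicate 4. Uty, of the same chromosome, was above background on no KO array by either probe, and on 1 WT array by 1 of them. Of the 2 probes of Xist, the RNA of the inactive X chromosome, one had 3.40 on WT replicate 4, 3.32 on KO replicate 3, -0.95 on KO replicate 4 and -5.66 or less on the others. The other was high on WT replicate 4 alone, at 3.82, with -2.52 on KO replicate 3. The part of the sex of the mice in the differences was not tested.

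No gene differed at an adjusted p under 0.05 (limma, Benjamini-Hochberg over 22687 genes; 0%), and the smallest adjusted p was 0.33. At an unadjusted p under 0.05 there were 508 genes higher in KO (2.24%) and 1065 lower (4.69%), together 1573 (6.93%). For 1274 genes (5.62%) the 3 KO arrays lay all above the 3 WT arrays, and for 1380 (6.08%) all below. Over all genes the differences had a median of 0.12, which moved to -0.60 when the 75th percentile was taken over probes detected on all 6 arrays, so list medians are given relative to it. The share of higher genes among those at an unadjusted p under 0.05 was 32.3%, against 12.1% under that scaling, 46.3% after quantile normalization, 51.7% after normexp background correction and 45.3% in the deposited table. Without KO replicate 3 the smallest adjusted p was 0.0889, and 2652 genes had an unadjusted p under 0.05. That number was 801 without WT replicate 3 and 805 without WT replicate 4. The values below are therefore descriptions of these 6 arrays, and every adjusted p is from limma.

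**Figure D1:**
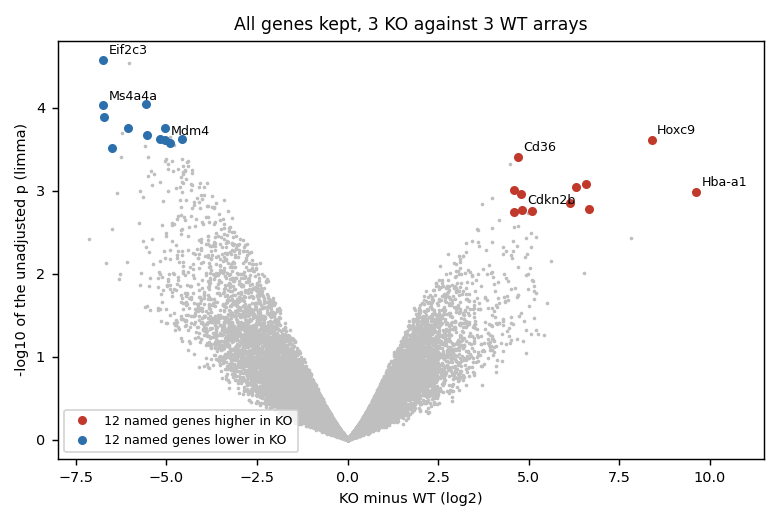
Difference between genotypes (x, KO minus WT, log2) against -log10 of the unadjusted limma p (y) for the 22687 genes kept. Red and blue points are the 12 named genes higher and the 12 lower in KO, and no gene reached an adjusted p under 0.05, the smallest being 0.33.

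Widely separated levels belonged to a long intergenic non-coding RNA that the array design places at chr1:175654606-175672031 (build mm9, forward strand). It has 5 probes, which were examined because earlier results of this series had singled them out. The 2 sequences below are a probe at chr1:175659288-175659389, which was low in KO, and the one probe of the transcript that was not, at chr1:175657865-175657924. Capitals mark the whole probe.
low in KO: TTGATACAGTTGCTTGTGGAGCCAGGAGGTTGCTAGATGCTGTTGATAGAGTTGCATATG
not low in KO: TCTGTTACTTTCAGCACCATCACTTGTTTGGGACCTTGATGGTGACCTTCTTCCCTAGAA

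The low probe had levels of -3.83, -3.36 and -3.05 on KO replicates 2, 3 and 4, and 4.20, 5.77 and 5.79 on WT replicates 2, 3 and 4. Every KO array lay more than 7 log2 units below every WT array, KO replicate 3 included. The difference was -8.66 (SE 0.82), with a limma adjusted p of 0.232 when each of 33792 probes was tested by itself. Differences of -8.27, -7.28 and -7.58 were measured by the 3 other low probes, which lie beside it, partly overlap and share a repeated sequence, so they are not independent. The probe that was not low had levels of 1.69, 1.42 and 3.93 in KO and 1.42, 2.61 and 2.36 in WT, which overlap, and a difference of 0.22 (SE 0.95). It is the brightest probe, so it stands for the transcript in the test over genes. The low probe also differed in the second set, by -7.73.

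AI607873 (now Ifi207), an interferon-inducible gene of the same stretch of chromosome 1, is read by 2 probes of the reverse strand. The probe at chr1:175666571-175671746 had levels of -4.89, -4.45 and -5.06 in KO, none of them well above background, and -2.75, 1.29 and 1.77 in WT. The groups did not overlap, and the signal was at least 16.5-fold lower in KO (difference -4.90, SE 1.25, limma adjusted p = 0.537). Such a bound sets the brighter group's mean against the lowest signal that still counts as well above background. The other AI607873 probe gave overlapping groups and a difference of -2.36.

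X53355 is the variable region of an immunoglobulin kappa light chain, which the array design describes as coming from a hybridoma against phosphatidyl choline. Its probe at chr6:67846563-67846622 (mm9, forward strand) is shown because it reads an antibody specificity typical of B-1a cells.
X53355: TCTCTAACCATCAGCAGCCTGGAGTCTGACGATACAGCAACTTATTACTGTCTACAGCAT

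X53355 had levels of -0.52, 5.59 and -1.83 on KO replicates 2, 3 and 4 and 8.45, 7.34 and 7.41 on the WT arrays. KO replicate 3 lay between the other KO arrays and WT. The difference was -6.66 (SE 1.82, limma adjusted p = 0.568) and -8.91 without KO replicate 3 (adjusted p = 0.0889). Variable segments of a family resemble each other, so the probe may read more than 1 of them. The transcription factor Bhlhe41, required for the upkeep of B-1a cells, had the same order, with -2.95, 1.95 and -3.27 in KO and 4.19, 4.31 and 3.69 in WT (difference -5.49, SE 1.41, adjusted p = 0.538). Without KO replicate 3, the KO array nearest to WT, its difference was -7.17 (adjusted p = 0.0889). For X53355 and Bhlhe41 this limma adjusted p was the lowest of all settings tried. Without WT replicate 4 the smallest adjusted p of any gene was 0.999. Plscr1, a phospholipid scramblase that marks B-1a cells, had 0.22, 3.45 and -3.48 in KO and 3.91, 3.86 and 3.32 in WT, so that KO replicate 3 lay inside the WT range.

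Ms4a4a, a membrane protein of the family of the B cell antigen CD20, did not show that order. Its levels were -5.77, -4.01 and -3.80 in KO, where 1 array was above background, and 1.38, 3.16 and 2.14 in WT. The difference of -6.75 (SE 0.88, limma adjusted p = 0.341) came with -5.13 in the second set, where the groups did not overlap either.

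**Figure D2:**
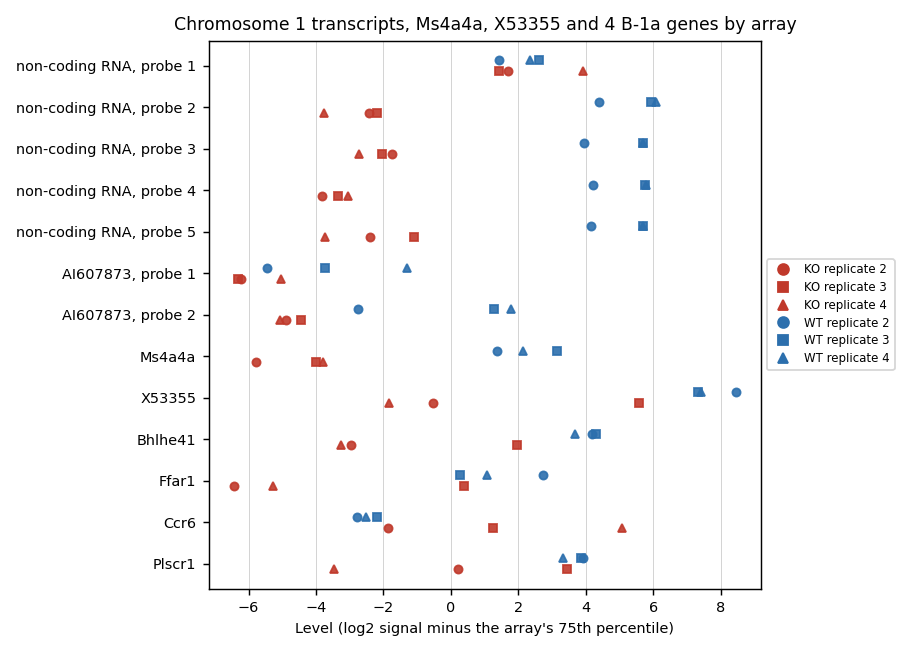
Level of each probe (x, log2 signal minus the array's 75th percentile) on the 3 KO arrays (red) and the 3 WT arrays (blue), with a symbol for each replicate. Probes 2 to 5 of the non-coding RNA separate the genotypes, whereas KO replicate 3 lies close to WT for X53355, Bhlhe41 and Plscr1.

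Of the genes that bear on the label, Bmi1 has 2 probes in the array design. The brighter one, at chr2:18607531-18607590, had levels of 3.00, 2.98 and 1.16 in KO and 2.09, 1.17 and 1.81 in WT, which overlap (difference 0.69, SE 0.82, limma adjusted p = 0.858; -0.03 with the percentile over probes detected on all 6 arrays). The dimmer one, at chr2:18607987-18608046, had -0.15, -1.15 and 0.95 in KO and -4.87, -3.57 and -2.20 in WT, with all KO arrays above WT (exact permutation test, two-sided p = 0.1, the smallest that 3 against 3 can give). The mean Bmi1 signal was not lower in KO by either probe, apart from the -0.03 of the first. The sources used here do not say which part of the gene was deleted, and probes outside a deletion do not check the genotype.

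Cdkn2b, which encodes the CDK4 and CDK6 inhibitor p15, had levels of 0.29, -1.96 and 1.16 in KO and -5.74, -4.20 and -5.03 in WT. No WT array was above background, and the signal was at least 13.7-fold higher in KO (difference 4.81, SE 1.0, limma adjusted p = 0.405). A second Cdkn2b probe gave overlapping groups and a difference of -0.85. Cdkn2a, which encodes p16 and the p53 activator p19Arf, had -4.17, -0.82 and -1.86 in KO, with 2 arrays above background, and -4.37, -6.23 and -6.01 in WT, with none. All KO arrays lay above WT, but KO replicate 2 only just (difference 3.26, SE 1.07, adjusted p = 0.668; 0.85 after normexp background correction). The second Cdkn2a probe overlapped, with a difference of 2.40 (exact permutation p = 0.4). Of 9 kept cell cycle inhibitors and RB family genes these 2 lay above WT on all KO arrays and 0 below, beside 5.62% and 6.08% of all genes. Both were kept through the KO arrays alone and so had to be higher there, which leaves this count a description. Cdkn1a, the p53-induced inhibitor p21, differed by -1.84 with overlapping groups.

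Several Hox genes were brighter on the KO arrays, Hoxc9 most of all. Hoxc9 had levels of 3.94, 2.30 and 6.71 on KO replicates 2, 3 and 4 and -5.49, -3.69 and -3.03 on the WT arrays, of which 2 were above background. The difference was 8.39 (SE 1.27, limma adjusted p = 0.341; 9.40 and 0.0889 without KO replicate 3). The latter adjusted p was the lowest for Hoxc9 of all settings tried. Hoxb13 had -0.43, -1.44 and 0.71 in KO and -5.59, -6.15 and -3.19 in WT (difference 4.59, SE 1.04, adjusted p = 0.488). Hoxa5 and Hoxa4, neighbours of the HoxA cluster, were above background on 2 KO arrays and no WT array, at least 4.55-fold and 2.36-fold higher. Hoxb9, named after its values were seen, differed by 1.96.

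Of 39 Hox genes on the array 13 were kept, 6 of them through the KO arrays alone. In 5 of the 13 all KO arrays lay above WT and in 0 all below, beside 5.62% and 6.08% of all genes. Members kept through KO alone had to be higher there, so these counts describe the members that passed and support nothing further. The median difference of the 13, relative to all genes, was 1.12, with a range of 0.49 to 1.43 over scalings and background corrections. Over all 39 genes, without that filter, 17, 15 and 9 were above background on KO replicates 2, 3 and 4 and 5, 9 and 13 on WT replicates 2, 3 and 4, so the genotypes overlapped. The other members went from -0.33 for Hoxa10 to 3.67 for Hoxc4, with overlapping groups. Hoxa13 was above background on all 6 arrays, with overlapping levels from -0.16 to 1.45. Of 13 kept members of other developmental regulator families, 1 lay above WT on all KO arrays and 2 below, beside 5.62% and 6.08% of all genes. Their median difference relative to all genes was -0.14. The Hox cofactor Meis1 differed by 3.60 and the kidney regulator Pax2 by -2.83, both without overlap.

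**Figure D3:**
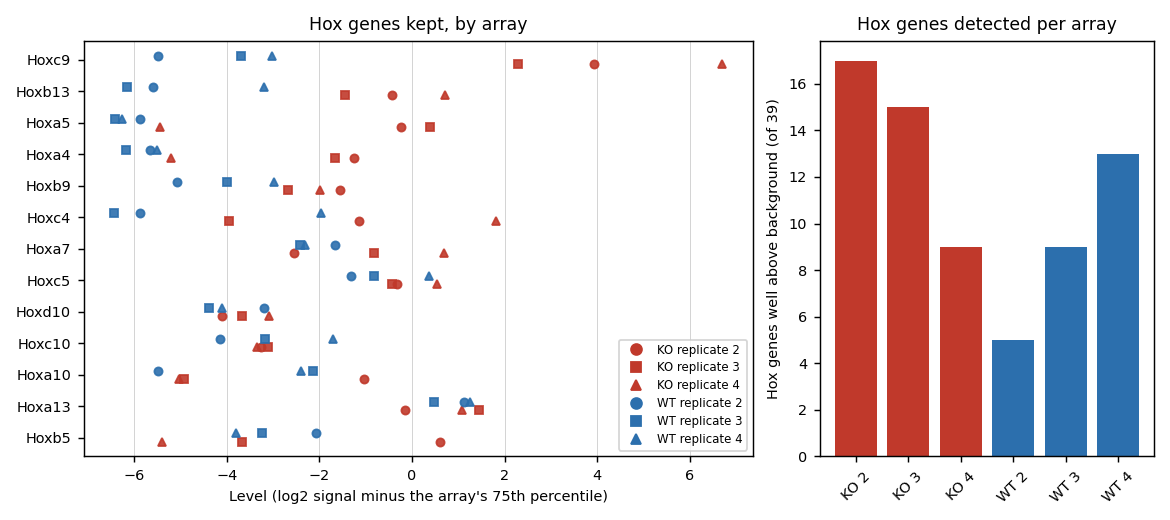
Left, level (x, log2 signal minus the array's 75th percentile) of the 13 Hox genes kept, by array, and right, how many of 39 Hox genes were well above background on each array. All KO arrays lie above WT for 5 of the 13, Hoxc9 and Hoxb13 among them, while the number detected is 9 to 17 in KO and 5 to 13 in WT.

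The named genes higher in KO were the 12 of smallest p with all 3 KO arrays above background and without overlap. Their limma adjusted p lay between 0.341 and 0.416, and 7 of the 12 were kept through the KO arrays alone. Beside Hoxc9 and Cdkn2b, Cd36, a scavenger receptor for lipids, had levels of 1.67, 0.34 and 2.17 in KO against -3.27, -3.33 and -3.31 in WT (difference 4.70, SE 0.77). Dyrk3, a kinase of condensates and erythroid cells, had 2.39, 1.64 and 4.22 against -1.90, -2.11 and -1.51 (difference 4.59, SE 0.87). For both, all 6 arrays were above background and the WT arrays lay close together. A pair of mitotic spindle genes was among the 12. Spag5, which encodes astrin, differed by 6.30, and Ska1, of the kinetochore complex SKA, was at least 30.9-fold higher. Beside 5.62% and 6.08% of all genes, 1 of 32 kept replication and mitosis genes lay above WT on all KO arrays (Pcna, the replication clamp, 2.01) and 2 below (Gins2, of the replicative helicase, -3.78, and the mitotic kinesin Kif20a, -3.08).

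Dhrs13, a dehydrogenase gene, was at least 21.7-fold higher, and Pop7, a subunit of RNase P, at least 7.06-fold. Anxa1, a phospholipid-binding protein that dampens inflammation, differed by 6.14 (3.27 with overlap by its second probe), Gfer, a sulfhydryl oxidase of mitochondria, by 5.09, and the homeobox gene En2 by 4.60. KO replicate 4 was the highest KO array for 10 of the 12 and KO replicate 3 the lowest for 10, so the spread within KO was large.

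Hba-a1, the alpha chain of haemoglobin, had the largest difference of the 12. Its levels were 8.40, 4.27 and 9.72 in KO and -4.71, 0.94 and -2.68 in WT (difference 9.61, SE 1.83, limma adjusted p = 0.358), and the probe cannot be told apart from near-identical alpha globin copies. Of the 4 erythroid markers 3 were kept. Hbb-b1 was above background on 2 KO arrays and no WT array, and Alas2 on 1 KO and 2 WT arrays. The summed erythroid level lay between 4.27 and 9.72 in KO and between -3.29 and 1.27 in WT. In the second set Hba-a1 differed by -3.48 with overlapping groups. The part of erythroid RNA in other differences was not tested.

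**Figure D4:**
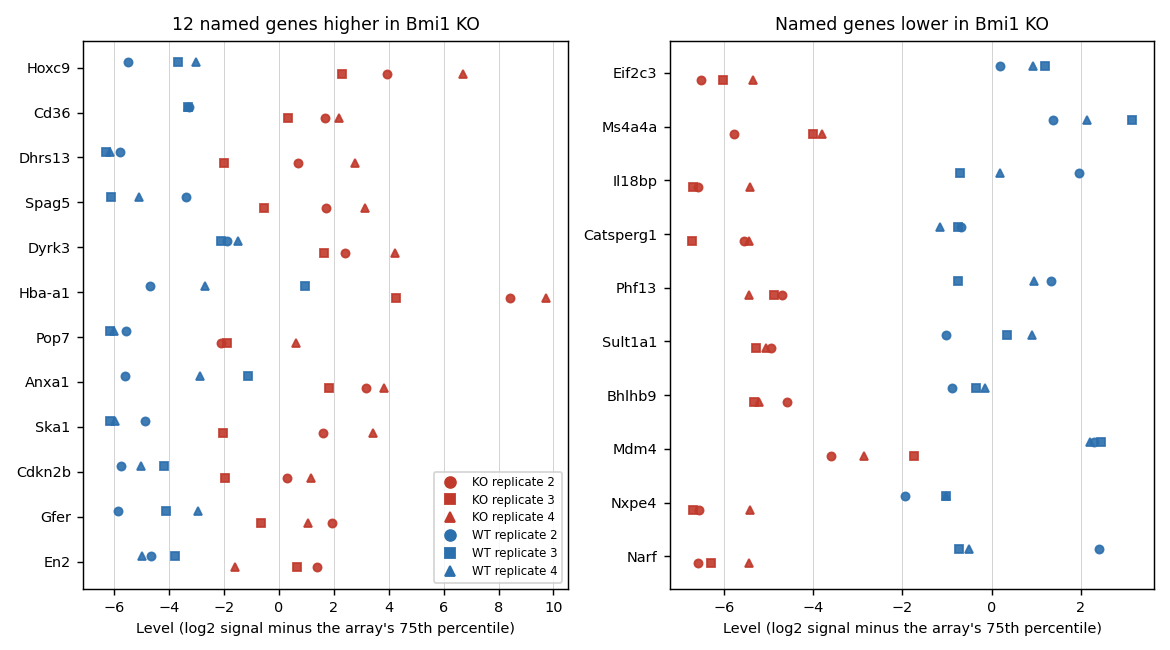
Levels (x, log2 signal minus the array's 75th percentile) of the 12 named genes higher (left) and 10 of the 12 lower (right) in KO, with 3 KO arrays in red and 3 WT arrays in blue. The genotypes do not overlap for any of them, which was part of the rule for naming them, and most lower genes sit near -5 to -7 in KO, the level of background.

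The named genes lower in KO had limma adjusted p between 0.33 and 0.341, and 11 of the 12 were kept through the WT arrays alone. Eif2c3 (now Ago3), an Argonaute protein of the RNA silencing pathway, had the smallest p of all genes. Its levels were -6.53, -6.03 and -5.36 in KO, none above background, and 0.19, 1.19 and 0.94 in WT, so that the signal was at least 26.2-fold lower (difference -6.75, SE 0.73). Of 27 kept DNA repair genes 1 lay above WT on all KO arrays and 1 below, beside 5.62% and 6.08% of all genes. The one above was Atr, the checkpoint kinase (2.62).

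Mdm4, an inhibitor of p53, was the one gene of the 12 above background on all 6 arrays. It had -3.60, -1.73 and -2.86 in KO and 2.29, 2.45 and 2.21 in WT (difference -5.04, SE 0.77, limma adjusted p = 0.341). A second Mdm4 probe had the same sign (-5.22), but its KO replicate 3, at 1.32, lay inside the WT range. Of 21 kept p53 targets, 3 lay above WT on all KO arrays and 1 below, beside 5.62% and 6.08% of all genes. Pmaip1, the death-promoting protein NOXA, had 3.89, 2.86 and 4.76 in KO and 0.39, 1.63 and 0.54 in WT (difference 2.99, SE 0.82, adjusted p = 0.568). Ccng1, a cyclin induced by p53, differed by 1.47 and the ribonucleotide reductase subunit Rrm2b by -3.37.

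Il18bp, the secreted antagonist of interleukin 18, was at least 21.4-fold lower and Narf, a lamin-binding protein, at least 20.2-fold. Phf13, a reader of methylated histone H3, was at least 21.9-fold lower by 1 probe, while its second probe, above background on 1 WT array, overlapped, and the sulfotransferase gene Sult1a1 at least 16.1-fold, the latter with a like value from its second probe (16.4). The bounds were 11.1-fold for Bhlhb9, 8.40-fold for Catsperg1 and 6.08-fold for Nxpe4.

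Genes of the B cell programme mostly overlapped. Of 32 kept B cell identity genes 1 lay above WT on all KO arrays and 2 below, beside 5.62% and 6.08% of all genes. The kinase Lyn, which restrains signals of the B cell receptor, had -2.05, -2.24 and -5.46 in KO and 0.24, 0.45 and 0.99 in WT (difference -3.81, SE 1.06, limma adjusted p = 0.587). Bach2, a repressor of plasma cell fate, differed by -4.33 and Pou2af1, a coactivator of immunoglobulin genes, by 2.14. Of 29 kept B-1a genes 4 lay above and 3 below. Beside Bhlhe41 these were Cd300lf (-1.49) and the BAFF and APRIL receptor Tnfrsf13b (-1.58), and above WT the chemokine receptor Ccr6 (3.98), the transcription factor Arid3a (1.46), Ahnak (1.17) and Lgals1 (0.89). The genes Zbtb32, Ctla4, Cd9, Spn and Cd5 overlapped, with differences from -0.59 to 0.96. Il10 overlapped as well, with a difference of -3.08. It had -6.28, -6.21 and 1.61 in KO, where 1 array was above background, and -0.21, -0.68 and -0.75 in WT.

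Receptors that steer B cells to lymphoid tissue were measured too. Ccr7, the receptor that leads lymphocytes to lymph nodes, had 0.77, -0.03 and 3.96 in KO and -0.85, -1.41 and -2.78 in WT (difference 3.25, SE 1.19, limma adjusted p = 0.701). Of 21 kept homing genes 4 lay above WT on all KO arrays and 0 below, beside 5.62% and 6.08% of all genes, shares that also apply to the other lists here. The other 3 were Ccr6, the integrin chain Itga4 (1.71) and the lipid receptor Gpr132 (1.59). Among 18 follicular B-2 genes, Ccr7 and the BAFF receptor Tnfrsf13c (2.58) lay above and Neurl3 (-2.07) below. Of 24 kept B cell receptor signalling genes 1 lay above and 3 below. The largest of these was the adaptor Pik3ap1 (-4.63), for which KO replicate 4 was at background.

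Among Polycomb subunits, 2 of 18 kept PRC1 genes lay above WT on all KO arrays and 2 below, beside 5.62% and 6.08% of all genes. Pcgf2 (Mel-18), the closest relative of Bmi1, had -6.25, -4.49 and -5.06 in KO, none above background, and -2.67, -1.03 and -1.22 in WT, at least 4.91-fold lower (difference -3.63, SE 0.85, limma adjusted p = 0.515). Phc1 differed by -3.85 and its relative Phc3 by 2.80. Of 11 subunits of PRC2, which methylates histone H3, Suz12 alone separated the groups (1.58), and Ezh2, its enzyme, was above background on 2 KO arrays and no WT array, with overlap.

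Immediate early genes, which respond within minutes to stimulation or handling, had 7 of 23 kept members with all KO arrays above WT and 0 below, beside 5.62% and 6.08% of all genes. Their median relative to all genes was 1.12, and 0.35 without KO replicate 4. Dusp2, a phosphatase that shuts off MAP kinases, had 1.10, 1.42 and 5.06 in KO and -0.22, -1.76 and -2.56 in WT (difference 4.04, SE 1.25, limma adjusted p = 0.636). The activation marker Cd69 had 2.53, 2.47 and 3.1 against 1.65, 1.13 and -0.03. Klf6 and Rhob differed by 1.84 and 2.48, whereas Fos, Jun, Egr1 and Myc overlapped, from -0.38 to 0.94.

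Proteasome subunits, which form the protein-degrading complex, lay above the median of all genes in 26 of 29 cases, beside 50% of all genes. In 6 of them all KO arrays lay above WT, and in 1, Psmd14, below, beside 5.62% and 6.08% of all genes. Psma6 had 5.03, 4.56 and 5.81 in KO and 3.63, 2.63 and 3.25 in WT (difference 1.96, SE 0.74, limma adjusted p = 0.712). The list's relative median was 1.20, and 0.57 without KO replicate 4. It was 0.11 with the slide row as a block, a setting added after the data were seen. KO replicate 4 was the highest KO array for 27 of the 29 and WT replicate 2 the highest WT array for 27. Cytoplasmic ribosomal proteins lay above the median in 76 of 78 cases, but the groups overlapped in all but Rpl4 and Rps10. KO replicate 4 was the highest KO array for 78 of the 78 and WT replicate 2 the highest WT array for 77, which are the dimmest arrays. Their relative median of 0.77 was 0.14 without KO replicate 4 and -0.62 with the slide row as a block. Respiratory chain genes mostly had the same array order (29 and 36 of 38). The relative median of that list, 0.86, was 0.29 without KO replicate 4 and -0.39 with that block. The part of array brightness in these lists was not tested.

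**Figure D5:**
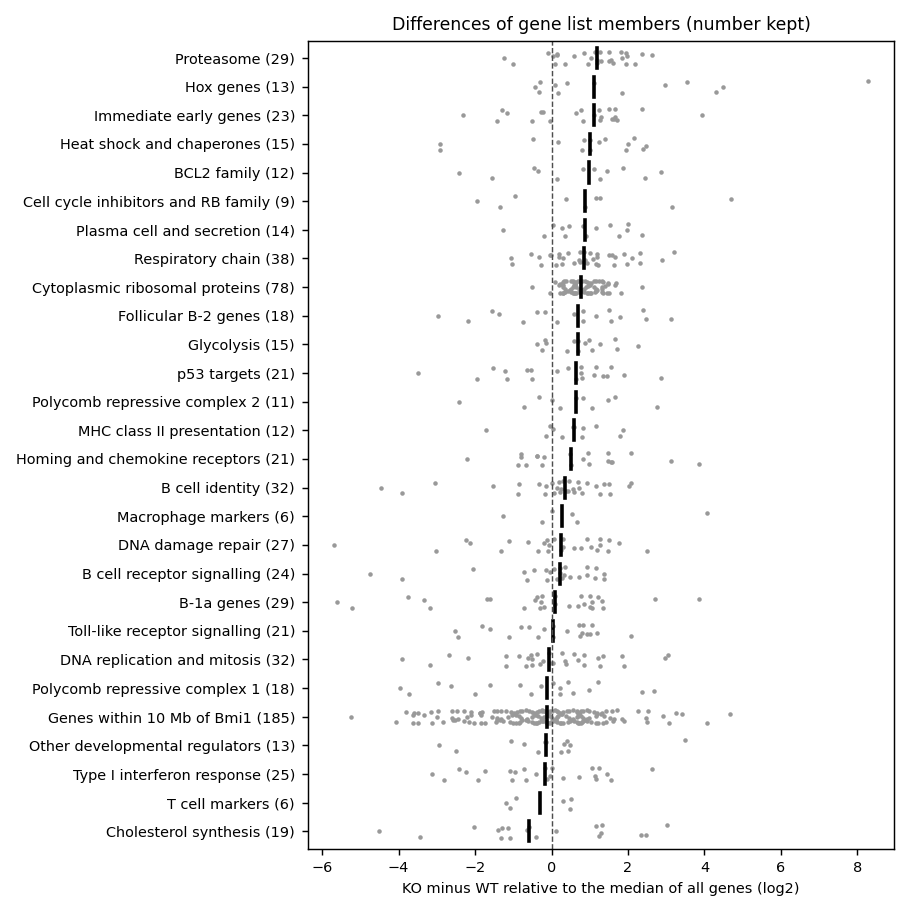
KO minus WT difference of each kept member (grey points) relative to the median of all genes (dashed line at 0, log2), for lists with at least 5 kept members, with the number kept in brackets and the list median as a black bar. Proteasome, Hox and immediate early genes have the highest medians, 1.20, 1.12 and 1.12, and cholesterol synthesis the lowest, -0.60.

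Cholesterol synthesis genes had 3 of 19 kept members with all KO arrays below WT and 1 above, beside 6.08% and 5.62% of all genes. Lss, which closes the sterol rings, had -6.50, -6.63 and -5.36 in KO, none above background, and -1.40, -2.34 and -1.54 in WT, at least 4.53-fold lower (difference -4.40, SE 0.75, limma adjusted p = 0.341). Nsdhl was at least 4.77-fold lower and Mvd differed by -1.28, while Cyp51 differed by 1.36. The list's relative median of -0.60 turned to 0.22 without KO replicate 2, 0.12 without KO replicate 4 and 0.06 without WT replicate 2. Against the same shares, 1 of 25 interferon response genes lay above (Trim30a, 2.74) and 3 below (Ifih1, -2.13, Ifit2, -1.81, and Mx2, at least 1.90-fold lower). Of 15 heat shock genes 3 lay above, Hsph1, Hsp90aa1 and Dnaja1, by 2.51, 2.13 and 1.53.

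Genes within 10 Mb of Bmi1 on chromosome 2 had 185 of 284 members kept. All KO arrays lay above WT in 9 and below in 17, beside 5.62% and 6.08% of all genes. The smallest p belonged to Mrc1, the mannose receptor of macrophages, with 0.48, 0.94 and 1.23 in KO and -1.70, -3.65 and -4.54 in WT (difference 4.18, SE 0.91, limma adjusted p = 0.453). Cubn, an endocytic receptor, and Nacc2, a transcriptional repressor, had no KO array above background and were at least 1.73-fold and 3.39-fold lower.

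Markers of the other cells of the peritoneal cavity mostly overlapped between genotypes. Summed levels of 8 macrophage markers were 3.70 to 5.90 in KO and 3.75 to 4.59 in WT, those of 7 T cell markers 2.11 to 2.47 and 1.58 to 2.56, and those of 5 dendritic cell markers 5.74 to 7.07 and 5.51 to 6.26. The sums for mast cells, neutrophils, natural killer cells, eosinophils and mesothelium overlapped as well, but KO replicate 2 stood apart in most of them. It had the highest sum of the 6 arrays for mast cells (4.01, with 5 of 6 markers detected, against at most 2.83), natural killer cells (0.83, with 4 of 5 detected, against at most -0.13), eosinophils (-0.16 against at most -1.31) and mesothelium (1.45 against at most -1.74). It also had 4 of 6 neutrophil markers detected. The part of such cells in the differences was not tested. Beside Mrc1 and Hba-a1, the markers with all KO arrays above WT were Zbtb46 and Flt3, of dendritic cells, by 4.70 and 1.28, and Klrb1c, of natural killer cells, which was above background on 1 KO array and no WT array (at least 2.44-fold). S100a8, Eomes, Clec9a, Msln, Krt19, Col1a1, Prg2 and Epx were above background on no array. In such bulk samples fewer cells of a type and less RNA per cell cannot be told apart.

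The second set gave other arrays for the same genes. Of its KO arrays 3 were dim, with 20.6% to 31.6% of spots above background, and the 14933 probes detected on none of its 8 arrays had a median difference of 1.67. In the first set the like value was -0.04 over 12910 probes. Differences of the second set are therefore given with the number of arrays on which the gene was detected. Hoxc9 was detected on all 8 arrays, and its 4 KO arrays lay above the 4 WT arrays (difference 5.93), as was so for 4.42% of all genes. Dyrk3 and Anxa1, each detected on at least 3 KO and 3 WT arrays, differed by 2.66 and 1.74 with overlap. Dhrs13 and En2 were detected on no array of that set, Ska1 on 1 KO array alone, Cd36 and Spag5 on 1 KO and 1 WT array, Pop7 on 1 KO and 2 WT arrays, and Gfer on 1 WT array alone. Cdkn2b, detected on 1 array of each genotype, overlapped and lay 0.25 below that set's median difference (-0.25), with an interaction adjusted p of 0.757 (limma). For Ms4a4a, detected on 4 WT arrays and 1 KO array, all KO arrays lay below WT, as for 1.09% of all genes. Phc1, lower in KO in the first set, differed by 1.07 with 3 KO and 4 WT arrays detected. X53355, AI607873 and Bhlhe41 differed by -6.80, -4.59 and -3.95 there, each detected on 4 WT arrays and on 2, 0 and 2 KO arrays. A direct test of the difference between sets (limma interaction over 23048 genes) had 0 genes at an adjusted p under 0.05 (0%) and 1330 at an unadjusted p under 0.05 (5.77%), and the smallest adjusted p was 0.722. The dim arrays of the second set enter that test too.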

How the data were processed

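RNA was extracted with a micro-scale kit and labelled with Cy3 by a company protocol that is not disclosed, per the labels, so any amplification is unknown. Spot intensity came from Agilent Feature Extraction 10.7.3.1 with detrending, per the file headers, which also give mm9 positions and per-spot score marks of 0 or 1 for background, saturation and outliers. No spot was saturated. The authors' deposited table of log2 values served as an alternative; the sources used here do not name the tool behind it.

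From the intensity, log2 minus each array's 75th percentile was taken, outlier spots were left out and spots of a probe averaged. Probes well above background on at least 2 of 3 arrays of a genotype were kept, and a gene name took its probe with the highest mean. Of 6579 names with several kept probes, 17 had probes differing in opposite directions at unadjusted p under 0.05. Current symbols came from a RefSeq list (GRCm38.p6). Tests used limma 3.58.1 in R 4.3.3 (lmFit, eBayes, two-sided, no covariate) with the data.table package (version 1.17.8), tested on simulated data; figures used matplotlib 3.10.9 in Python 3.11.15. The 6 arrays alone entered the comparison, and all 14 the test between sets, with set membership read from title style. The number of arrays limits the precision.

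Members and lists were chosen with earlier results of these data known. The rule named Bmi1 and Cdkn2a; 12 symbols per direction of smallest p, above background on all 3 arrays of the brighter genotype and without overlap; up to 4 members per list by smallest p; 6 genes for the difference between sets; and Hoxc9, Ms4a4a, X53355, AI607873 and the chromosome 1 non-coding RNA. Further list members without overlap, and the markers Flt3 and Zbtb46, were named after their values were seen. Some genes that the rule selected are left out of the text and figures. Alternatives covered scaling, background correction, the probe filter, the spread estimate, the replicate block, the slide row and leaving out arrays.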

Additional observations from a re-analysis of the deposited data

Results flagged for a closer look

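Among the 6 genes of smallest p for the difference between sets, all but Zbtb34 had every KO array below WT in the first set and above WT in the second. These were Gpr174 (-4.41 in the first set and 3.07 in the second), F2 (-2.80 and 2.75), Ndufb4 (-3.15 and 2.31), Ogfod3 (-4.78 and 2.83) and Prss57 (-4.70 and 2.27). The interaction had a limma adjusted p of 0.722 for each. For each of these genes no KO array of the first set was above background. KO was at least 5.55-, 1.78-, 2.1-, 9.15- and 11.3-fold lower there, in the same order. In the second set Gpr174 was above background on 3 KO arrays and 1 WT array, and each of the others on 1 KO array and no WT array. Another Gpr174 probe, the brighter one in the first set, overlapped there, with a difference of 2.21. Probes detected on no array of the second set had a median difference of 1.67 there, and the part of background in these opposite signs was not tested.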

How the results depend on the processing

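The count of genes at an adjusted p under 0.05 was 0 under all 18 alternatives for the first set and all 20 for the difference between sets (smallest limma adjusted p from 0.0889 to 1 and from 0.164 to 0.961). Leaving out 1 array gave 0 genes each time, with 801 to 2652 at an unadjusted p under 0.05, and 2841 without the 2 dimmest arrays, an alternative chosen after seeing the data. With only probes above background on all 6 arrays 737 genes had an unadjusted p under 0.05, 71.1% of them higher in KO, and with every kept probe tested by itself 2784 probes did. With the slide row as a block, also added later, 47.7% of 1221 were higher. KO and WT arrays of the same number, 2, 3 or 4, had correlations of deviations of -0.21, 0.16 and -0.23. With 3 arrays per genotype these values cannot decide whether a number marks a pair. The replicate block gave 0 genes (smallest limma adjusted p 0.808, 1373 at an unadjusted p under 0.05; 0.939 for the difference between sets).

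Of the values of named genes under alternatives 14 changed sign, and the cause was not tested. Those reported here follow. Bmi1 was at -0.03 with the percentile over probes detected on all 6 arrays. The brightest probe of chr1:175654606-175672031_F was at -0.50 under that scaling, -0.45 with quantile normalization, -0.52 in the deposited table, -0.57 without KO replicate 4 and -0.13 without WT replicate 2 (-0.57 to 0.68 leaving out 1 array), and -0.92 without the 2 dimmest arrays. Msx2 was at 0.13 without KO replicate 4 (-1.66 to 0.13 leaving out 1 array). With the slide row as a block Msx2 was at 0.40, Cdkn1a at 0.14, Aldoa at -0.06, Eno1 at -0.23 and Ebp at -0.25. Relative medians changed sign between scalings for B cell identity (0.34 to -0.16), B cell receptor signalling (0.21 to -0.34), B-1a genes (0.08 to -0.17) PRC1 (-0.11 to 0.26), other developmental regulators (-0.14 to 0.43), Toll-like receptor signalling (-0.15 to 0.32) and replication and mitosis (-0.06 to 0.18).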

Other observations

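Respiratory chain genes held 4 of 38 members with all KO arrays above WT and 0 below, beside 5.62% and 6.08% of all genes. Cox5b, of complex IV, had levels of 1.0, -0.59 and 0.71 in KO and -1.86, -2.26 and -2.05 in WT (difference 2.43, SE 0.75, limma adjusted p = 0.636). Ndufv2, of complex I, had 2.12, 1.85 and 4.77 against 0.40, -0.43 and -0.25 (difference 3.01, SE 0.96, adjusted p = 0.653). Secretory pathway genes had 2 of 14 members without overlap, the chaperone Hspa5 (2.1) and Herpud1 (1.89), both of the unfolded protein response. Of 12 kept BCL2 family genes and relatives, Xiap, an inhibitor of caspases, and Mcl1, which protects B cells from death, lay above WT on all KO arrays beside Pmaip1, by 2.00 and 1.40. None of 15 glycolysis genes but Ldha (0.80) was without overlap. Among MHC class II genes the protease Ctss differed by 1.90 and the peptide exchange factor H2-DMb2 by -1.60, both without overlap.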
